A study of Mus musculus with 6 samples.

Results

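The genes described here encode the catalytic and core regulatory subunits of 2 serine/threonine phosphatases, protein phosphatase 1 (PP1) and calcineurin, in the mouse testis. They were taken by gene symbol from the deposited count table and number 9 of the 26743 genes listed: Ppp1ca, Ppp1cb and Ppp1cc for the PP1 catalytic subunits, Ppp1r2 for PP1 inhibitor 2, Ppp3ca, Ppp3cb and Ppp3cc for the calcineurin A catalytic subunits, and Ppp3r1 and Ppp3r2 for the calcineurin B regulatory subunits. Whole testes of 3 wild-type (WT) mice and of 3 Trf2-/- mice, all males aged 21 days, were profiled by RNA-seq after ribosomal RNA depletion, 1 library per mouse. Trf2, whose gene is listed as Tbpl1, is a relative of the TATA-binding protein made mainly in spermatocytes and spermatids. The comparison asked which testis transcripts depend on Trf2 at the age when the first round spermatids appear. No conditional allele or transgene is named in the labels, and whole testis holds germ cells together with Sertoli, Leydig, peritubular and immune cells.

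PP1 and calcineurin remove phosphate groups from serine and threonine. PP1 consists of a catalytic subunit held by one of many regulatory or targeting proteins, whereas calcineurin is a dimer of a catalytic A subunit and a calcium-binding B subunit and is switched on by calcium and calmodulin. Germ cells use their own forms of both enzymes. The PP1 gamma gene Ppp1cc gives, by alternative splicing, a testis-enriched form needed for sperm formation, and Ppp3cc and Ppp3r2 encode the sperm calcineurin, which acts on sperm midpiece flexibility and motility. Ppp1ca, Ppp1cb, Ppp3ca, Ppp3cb and Ppp3r1 are used in most tissues and are called somatic forms below. The genes Ppp1cc, Ppp3cc and Ppp3r2 are called germ cell forms, although the counts of Ppp1cc cover all its splice forms together.

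The calcineurin B pair carried the largest genotype difference, so its sequences are given first. The Ppp3r1 and Ppp3r2 reading frames in the GENCODE annotation of the mouse build NCBIM37 were identical at 73.1% of 513 aligned bases, with no identical run longer than 20 bases, so a read of 50 bases from one coding sequence did not match the other in full. Their first 60 coding bases are shown 5′ to 3′, with the 20 bases that differ in capitals.
Ppp3r1: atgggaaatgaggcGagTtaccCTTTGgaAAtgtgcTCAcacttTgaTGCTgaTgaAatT
Ppp3r2: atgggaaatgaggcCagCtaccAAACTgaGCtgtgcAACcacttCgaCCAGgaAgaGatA
The 3 PP1 catalytic frames shared 74.7% to 77.5% of aligned bases pairwise and the 3 calcineurin A frames 72.5% to 74.0%. The longest identical run in any of these pairs was 44 bases, between Ppp1ca and Ppp1cc, again below the read length.

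The starts of the calcineurin B genes also differ in composition. The 250 bases upstream of the RefSeq start of each gene (build GRCm38.p6) are printed because Trf2 acts at promoters, with capitals for the motif match described next.
Ppp3r1, chr11:17159048-17159297, plus strand: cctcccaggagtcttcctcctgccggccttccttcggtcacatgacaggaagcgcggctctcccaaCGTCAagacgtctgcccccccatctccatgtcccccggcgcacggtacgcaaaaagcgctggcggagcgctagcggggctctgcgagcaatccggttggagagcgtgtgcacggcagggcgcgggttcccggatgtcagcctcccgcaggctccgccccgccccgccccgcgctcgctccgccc
Ppp3r2, chr4:49681984-49682233, minus strand: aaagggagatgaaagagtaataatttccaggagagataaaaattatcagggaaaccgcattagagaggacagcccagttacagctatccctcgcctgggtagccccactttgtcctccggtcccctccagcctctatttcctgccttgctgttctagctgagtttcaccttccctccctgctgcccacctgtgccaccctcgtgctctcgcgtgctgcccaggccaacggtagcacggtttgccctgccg
Over the full RefSeq promoter window, which adds the 50 bases after the start, Ppp3r1 held 36 CpG dinucleotides at 70.7% G and C, whereas Ppp3r2 held 11 at 57.0%. The median over 32851 promoters was 7 CpG dinucleotides and 52.7%. The Ppp3r2 start codon lay 36 bases downstream of the start site.

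Promoter windows were found for 6 of the 9 genes and were searched on both strands for the cyclic-AMP response element TGACGTCA, its core TGACG, and the TATA box TATAAA. The full element was in none of the 6 and in 1.79% of all promoters. The core, which is also part of the full element, was in Ppp1cb at 37 bases after the start, in Ppp3cb across the start at position -1 and in Ppp3r1 on the antisense strand at -184, and in 20.8% of all promoters. TATAAA was in Ppp1r2 at -215 and -173 and in 13.6% of all promoters. The windows of Ppp1cc and Ppp3r2 held none of the 3 motifs. Ppp1ca, Ppp3ca and Ppp3cc were not matched.

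Summed counts per library ran from 15187062, in Trf2-/- mouse 3, to 29859347, and all 9 genes were among the 16924 that passed the filter on low counts. Tbpl1, the inactivated gene, stood at 283 to 308 CPM (counts-per-million, scaled by the trimmed mean of M-values, TMM) in WT and at 55.8 to 64.3 CPM in Trf2-/-. edgeR's quasi-likelihood test with Benjamini-Hochberg adjustment over all tested genes called 3423 genes lower and 1889 higher in Trf2-/- at adjusted p under 0.05, so that 64.4% of the calls were lower. When libraries were scaled by library size alone, 2691 were lower and 4267 higher, 38.7% lower, and the median log2 fold change of all genes went from 0.04 to 0.13.

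Of the 9 genes, 4 were lower in Trf2-/- (Ppp3r2, Ppp3ca, Ppp3cc and Ppp1cc), against 20.2% of all tested genes. Another 2, Ppp1cb and Ppp1ca, were higher, against 11.2%. Ppp3r1, Ppp3cb and Ppp1r2 did not pass the threshold. All 3 germ cell forms were thus among the lower genes, together with the somatic form Ppp3ca. Ppp3r2 alone was also down at least 2-fold, which 4.30% of all tested genes were. In 7 of the 9 genes the CPM values of the genotypes did not overlap, against 49.2% of tested genes. The direction of every one of the 9 was kept under TMM, DESeq2 size factors and library size alone.

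**Figure D1:**
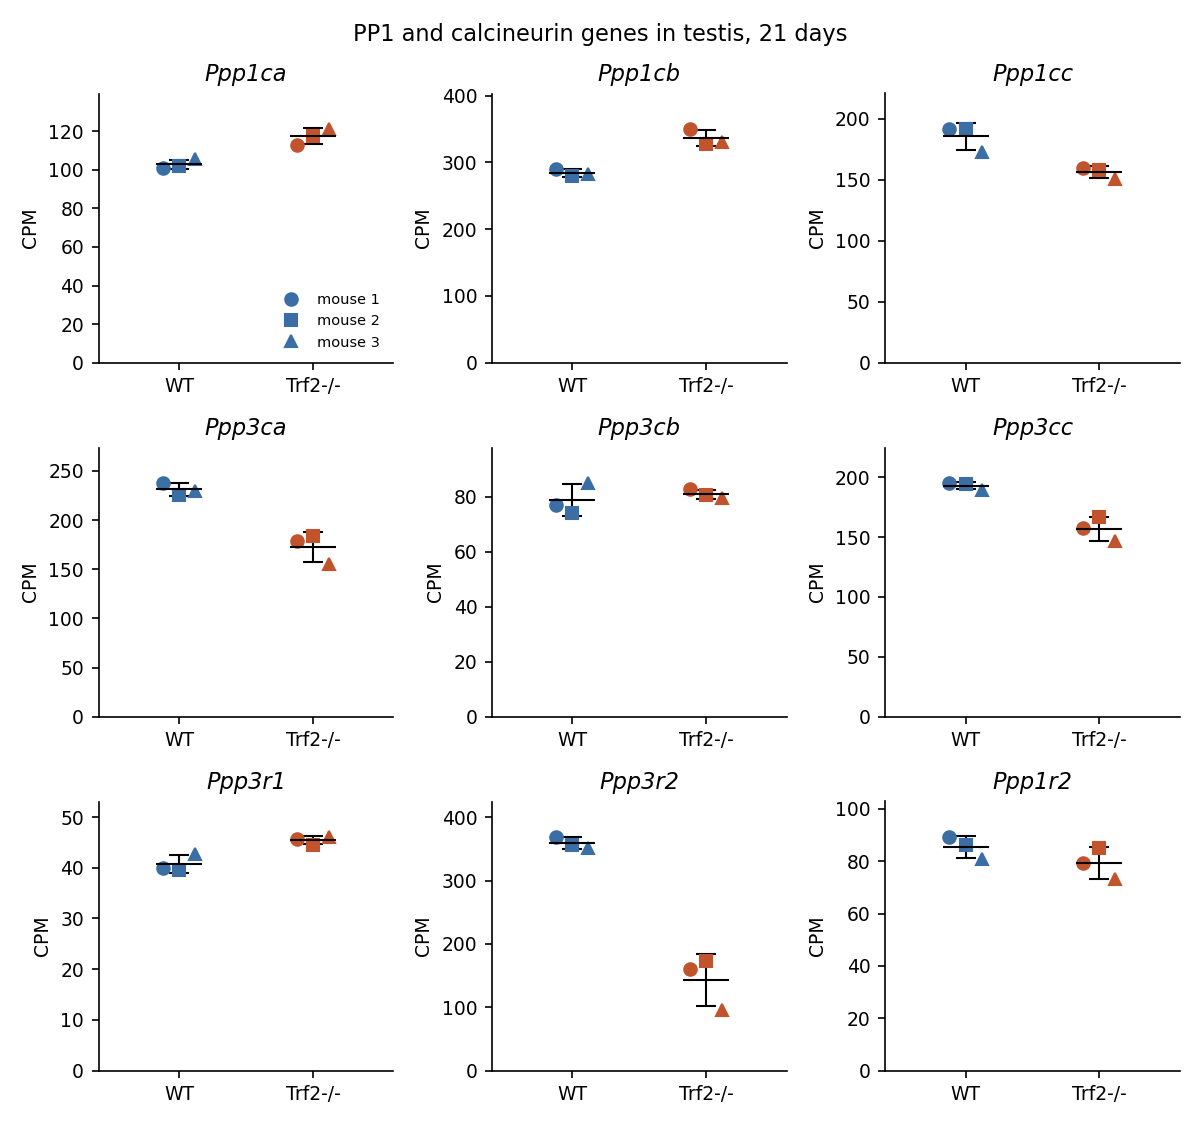
CPM (linear axes from 0) of the 9 genes in each mouse, WT in blue and Trf2-/- in orange; symbols mark mice 1 to 3, bars the mean and lines the SD (n = 3). The 3 Trf2-/- points of Ppp3r2 (95.5 to 173 CPM) sit far below the WT points (352 to 369 CPM), while those of the other genes lie within a narrow distance of WT.

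Among the PP1 catalytic genes, Ppp1cc, counted over all its splice forms, fell and both somatic forms rose. Ppp1cc, PP1 gamma, had 192, 192 and 173 CPM in WT and 160, 158 and 151 CPM in Trf2-/-. Every Trf2-/- value was below every WT value, and the log2 fold change was -0.25 (SE 0.05), with an edgeR adjusted p of 0.00830. Ppp1ca, PP1 alpha, a widely used form, stood at 101, 102 and 106 CPM in WT and at 113, 118 and 121 CPM in Trf2-/-. The groups did not overlap and the log2 fold change was 0.19 (SE 0.05), with an edgeR adjusted p of 0.0158. That call was lost without WT mouse 1 (adjusted p = 0.0670 by edgeR) and without WT mouse 2 (adjusted p = 0.0724). Ppp1cb, PP1 beta, the form that works with myosin phosphatase targeting subunits, had 290, 279 and 282 CPM in WT. In Trf2-/- it had 351, 328 and 331 CPM, again without overlap, for a log2 fold change of 0.24 (SE 0.04) and an edgeR adjusted p of 0.00391.

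Ppp1r2, inhibitor 2, which binds and restrains the PP1 catalytic subunit, did not pass the test. It stood at 89.4, 86.2 and 80.9 CPM in WT and at 79.4, 85.1 and 73.1 CPM in Trf2-/-, with overlapping groups. The log2 difference was -0.11, with a 95% interval from -0.26 to 0.04 and an edgeR adjusted p of 0.239.

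Of the 3 calcineurin A genes, the germ cell form and Ppp3ca fell and Ppp3cb did not pass the test. Ppp3cc, the A gamma subunit of sperm calcineurin, stood at 196, 194 and 190 CPM in WT and at 157, 167 and 146 CPM in Trf2-/-. Its groups were apart, and the log2 fold change was -0.30 (SE 0.05), with an edgeR adjusted p of 0.00355. Ppp3ca, A alpha, a main form of brain and other somatic tissues, stood at 238, 226 and 229 CPM in WT and at 178, 184 and 155 CPM in Trf2-/-. This somatic form had the larger point estimate of the pair, -0.42 (SE 0.06), with an edgeR adjusted p of 0.00176 and no overlap between groups. Ppp3cb, A beta, had 77.1, 74.0 and 85.2 CPM in WT and 82.8, 80.7 and 79.5 CPM in Trf2-/-. The Trf2-/- values of Ppp3cb lay inside the WT range, with a log2 difference of 0.04, a 95% interval from -0.10 to 0.18 and an edgeR adjusted p of 0.628.

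Ppp3r2, the B subunit of sperm calcineurin, changed most of the 9. Its raw counts were 10601, 9294 and 7341 in WT and 4035, 4027 and 1510 in Trf2-/-, or 369, 356 and 352 CPM against 160, 173 and 95.5 CPM. The WT mice were close together, the Trf2-/- mice were all lower, and Trf2-/- mouse 3 was lowest. The log2 fold change was -1.33 (SE 0.18, 95% interval -1.73 to -0.92), with an edgeR adjusted p of 0.00102. Only 2.50% of tested genes had a lower log2 fold change. Without Trf2-/- mouse 3 it was -1.10, with an edgeR adjusted p of 2.81e-06, and over all 12 alternative fits it ran from -1.49 to -1.10 and passed the threshold each time.

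Ppp3r1, the B subunit of other tissues, showed no such fall. It stood at 39.9, 39.6 and 42.7 CPM in WT and at 45.7, 44.6 and 46.1 CPM in Trf2-/-. All Trf2-/- values were above the WT values, but the log2 difference of 0.16 (95% interval 0.03 to 0.29) missed the threshold, with an edgeR adjusted p of 0.0586. With libraries scaled by size alone it was 0.25 and passed, with an edgeR adjusted p of 0.00892.

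**Figure D2:**
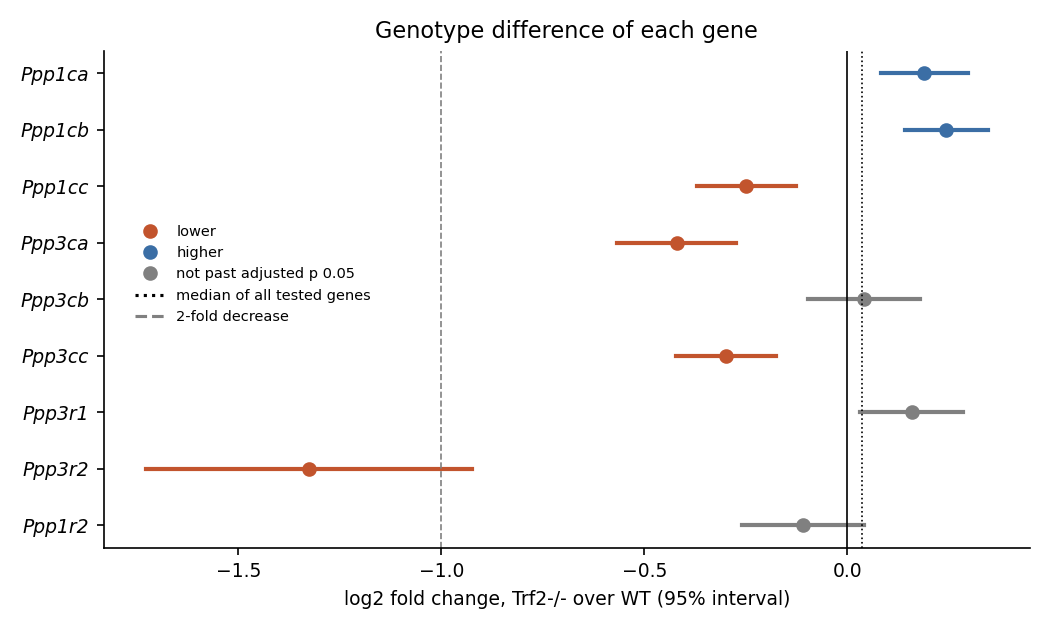
Log2 fold change of each gene, Trf2-/- over WT, with its 95% interval from the edgeR fit over 3 mice per genotype; orange marks lower genes, blue higher genes and grey those not past an adjusted p of 0.05. Ppp3r2 (-1.33) lies alone near the 2-fold line, and the other 8 lie between -0.42 and 0.24.

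The levels of the genes were then compared per gene length, as RPKM (CPM divided by the gene length listed in the table, in kilobases). In WT, Ppp3r2 was highest at 119 ± 2.99 RPKM (SD, n = 3), and 2.31% of tested genes had a higher mean. Ppp1cc at 75.0 ± 4.33 and Ppp1ca at 71.9 ± 1.69 RPKM came next and overlapped each other. Below them stood Ppp3cc at 65.9, Ppp3ca at 44.2, Ppp1cb at 40.6, Ppp1r2 at 19.3, Ppp3cb at 16.5 and Ppp3r1 at 12.6 RPKM, each apart from its neighbour in all 3 mice. All 3 germ cell forms were thus among the 4 highest of the 9 in WT testis. With the length of all annotated exons in place of the listed length, Ppp1cc came to 54.2 RPKM, which is below Ppp1ca.

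In Trf2-/- testes the order changed at its top. Ppp1ca led with 82.0 ± 2.92 RPKM, followed by Ppp1cc at 63.1 ± 1.90 RPKM. Ppp3cc at 53.5, Ppp1cb at 48.0, Ppp3r2 at 47.2 and Ppp3ca at 33.0 RPKM formed a run in which each overlapped the next, with an SD of 13.7 RPKM for Ppp3r2. With the length of all annotated exons, Ppp1cc came to 45.6 RPKM, which is below Ppp3cc, Ppp1cb and Ppp3r2, so its place depends on the length used. Ppp1r2 at 17.8 and Ppp3cb at 16.9 RPKM overlapped, and Ppp3r1 was again last at 14.1 RPKM.

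Summed over each subunit class, the PP1 catalytic genes stood at 187 ± 2.90 RPKM in WT and 193 ± 0.410 RPKM in Trf2-/- (SD, n = 3). The calcineurin A genes went from 127 ± 1.75 to 103 ± 6.52 RPKM. The calcineurin B genes went from 131 ± 2.70 RPKM to 67.1, 70.9 and 45.8 RPKM in the 3 Trf2-/- mice. The A and B sums were therefore close to each other in WT, and in each Trf2-/- mouse the B sum was below the A sum of 105, 109 and 96.3 RPKM.

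The share of each form within its class showed which form carried these sums. Ppp3r2 made up 90.8%, 90.5% and 89.8% of the calcineurin B sum in WT and 78.9%, 80.5% and 68.8% in Trf2-/-, so it stayed the larger part in every mouse. Ppp1cc made up 40.0% ± 1.72 of the PP1 sum in WT and 32.7% ± 0.948 in Trf2-/- (SD, n = 3). Ppp3cc held 52.1% ± 0.923 of the calcineurin A sum in WT and 51.7% ± 0.593 in Trf2-/-, a difference smaller than the spread between mice. Within the same sum Ppp3ca went from 34.9% to 31.9% and Ppp3cb from 13.0% to 16.4%. The shares depend on the lengths used: with all annotated exons as the length, Ppp1cc came to 32.5% in WT and 26.0% in Trf2-/-.

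**Figure D3:**
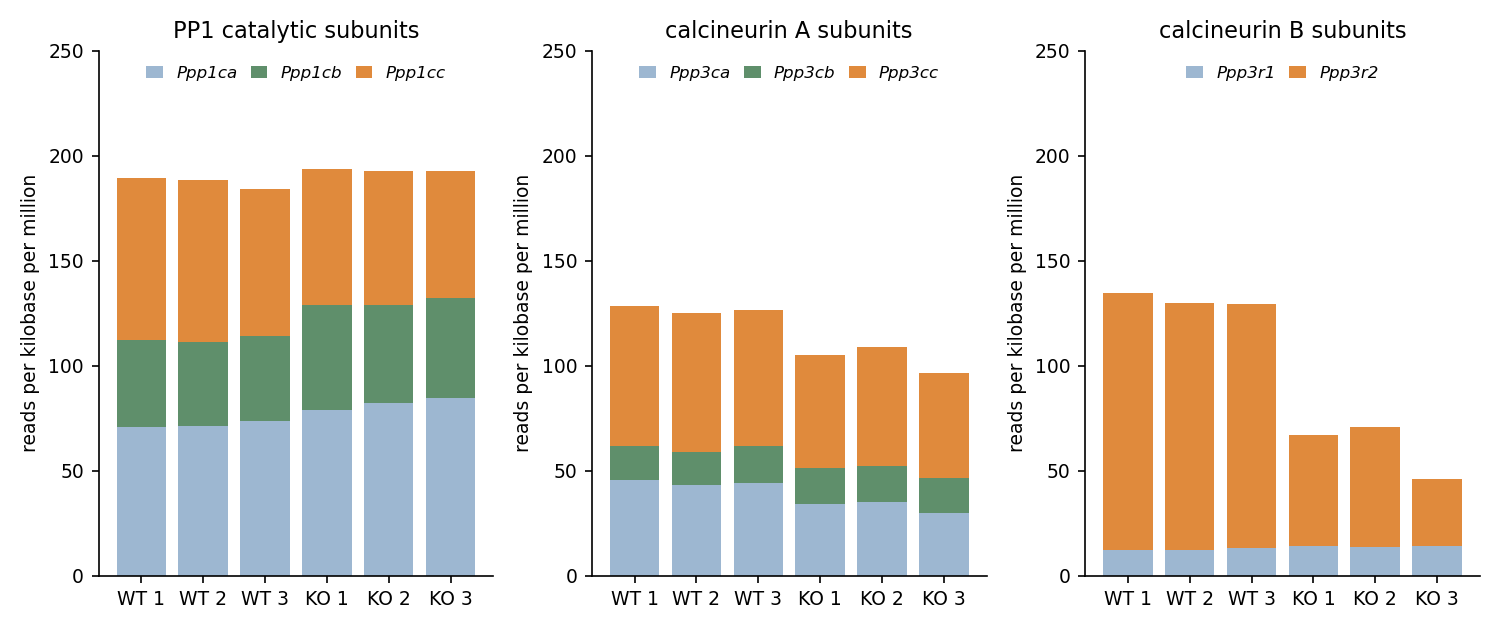
Stacked RPKM of the PP1 catalytic, calcineurin A and calcineurin B genes in each mouse (KO, Trf2-/-), with the germ cell form in orange on top. The calcineurin B stack is shorter in all 3 Trf2-/- mice through its Ppp3r2 part, while the PP1 stacks keep about the same height (184 to 194).

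A count ratio of the germ cell form to a somatic form within a mouse needs no scaling between libraries. Ppp3r2 had 9.25, 8.98 and 8.24 counts per count of Ppp3r1 in the WT mice and 3.50, 3.87 and 2.07 in the Trf2-/- mice. The difference of the mean log2 ratios, Trf2-/- minus WT, was -1.54, and -1.26 without Trf2-/- mouse 3. Ppp1cc was lower against both somatic PP1 forms, with a log2 difference of -0.44 against Ppp1ca and -0.49 against Ppp1cb. Ppp3cc was lower against Ppp3cb, at -0.34, but higher against Ppp3ca, at 0.12, since Ppp3ca had the lower fold change. The genotypes did not overlap in any of the 5 ratios, which share genes and so are not independent. CPM values did not overlap in 49.2% of single tested genes, and no such share was computed for gene pairs. The two-sided exact permutation test gave p = 0.1 for each of the 5 ratios, the smallest that 3 mice against 3 allow. It stayed at 0.1 after Benjamini-Hochberg adjustment over the 5.

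**Figure D4:**
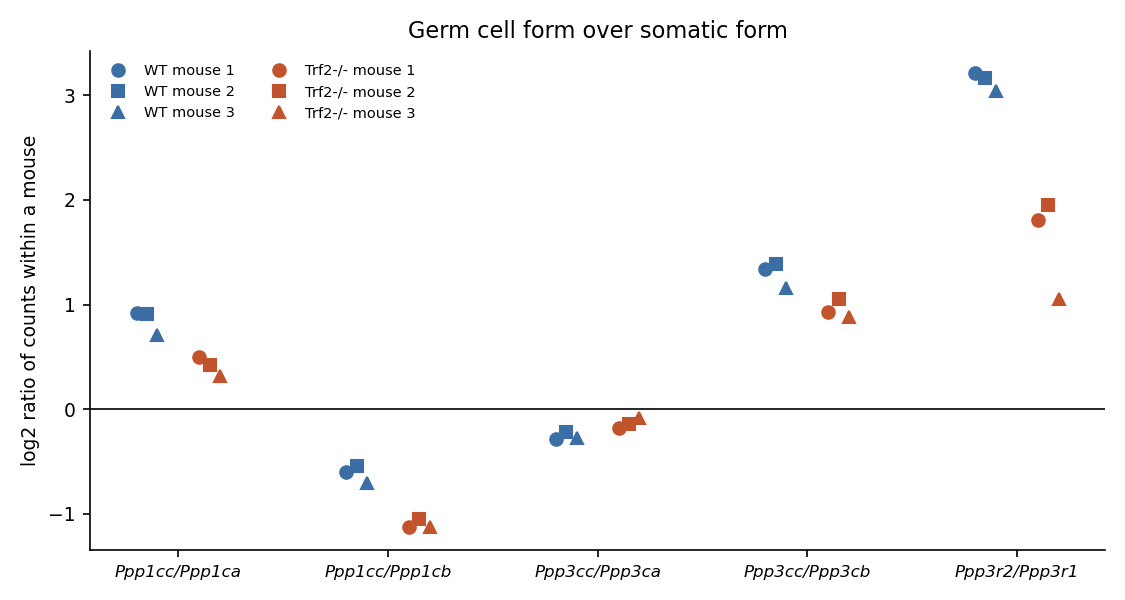
Log2 ratio of germ cell form to somatic form counts within each mouse, WT in blue and Trf2-/- in orange. In 4 of the 5 ratios all Trf2-/- points lie below the WT points, by most for Ppp3r2/Ppp3r1, and in Ppp3cc/Ppp3ca they lie above.

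Markers of germ cell stages moved with the genotype as well. Summed CPM of 8 round spermatid markers was 67.5 to 72.2 in WT against 28.9 to 44.0 in Trf2-/-, and 7 of the 8 were lower. Most of that sum was Acr, the acrosin gene, at 54.5 to 59.7 CPM in WT and 23.4 to 36.1 CPM in Trf2-/-. The median log2 fold change of the 8 genes was -2.19, which rests on genes with few reads. Acrv1, Catsper3, Catsper4, Izumo1, Spaca7 and Tssk2 had 13 to 43 counts per WT mouse and 0 to 15 per Trf2-/- mouse. The better counted Acr and Spaca1 were at -0.85 and -0.22, and Spaca1 did not pass the test (edgeR adjusted p = 0.217). All 7 pachytene spermatocyte markers were lower, with sums of 4995 to 5406 CPM in WT and 3387 to 4132 CPM in Trf2-/-. Ldhc, the largest part of that sum in WT, was at 2237 to 2362 CPM in WT and 1086 to 1657 CPM in Trf2-/-. Hspa2 was at 1593 to 1799 CPM in WT and 1435 to 1550 CPM in Trf2-/-. Log2 fold changes of the 7 ran from -0.16 for Mybl1 to -1.97 for Ovol2. Of the elongating spermatid markers, the 3 that could be tested were all lower, at sums of 4.99 to 6.59 CPM against 0.316 to 0.901 CPM for the 6 in the table. Prm1 and Tnp2 were not found by symbol among the genes listed. Counts of lower genes in these germ cell lists compare with 20.2% of all tested genes. In these whole testes, fewer cells of a type and less RNA per cell cannot be told apart.

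The marker sums of earlier germ cells and of Sertoli cells were above WT in every Trf2-/- mouse. Spermatogonial markers summed to 175 to 183 CPM in WT and 191 to 247 CPM in Trf2-/-, with 1 of 7 higher, a share near the 11.2% of all tested genes, and Nanos3 at a log2 difference of -0.22. Early spermatocyte markers summed to 963 to 1008 CPM against 1107 to 1147 CPM, with 3 of 6 higher, and Sertoli cell markers to 1393 to 1539 CPM against 1637 to 1824 CPM, with 4 of 6 higher. Most of the Sertoli sum was Clu, at 1044 to 1165 CPM in WT and 1226 to 1373 CPM in Trf2-/-. The largest part of the early spermatocyte sum was Sycp3, at 456 to 492 CPM in WT and 553 to 563 CPM in Trf2-/-. Leydig cell markers (181 to 360 CPM against 185 to 326 CPM, 1 of 6 higher), peritubular markers (289 to 371 CPM against 363 to 417 CPM, 1 of 5 higher) and macrophage markers (144 to 168 CPM against 162 to 323 CPM, 3 of 6 higher) overlapped between genotypes. Counts of higher genes in all these lists compare with the same 11.2% of all tested genes. No marker in the table was at 0 in every mouse, but the elongating spermatid genes Prm2, Prm3 and Tnp1 had 0 to 4 counts per mouse and were not tested.

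Trf2-/- mouse 3, the shallowest library, had the lowest round spermatid and pachytene sums and the highest spermatogonial and Sertoli sums. Among the Trf2-/- mice it also had the lowest CPM of the 4 lower genes, Ppp3r2, Ppp3ca, Ppp3cc and Ppp1cc, and of Ppp1r2 and Ppp3cb, which did not pass the test. Without it the same 4 genes were called lower and the same 2 higher. The part of the marker differences in the phosphatase differences was not tested.

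Both phosphatases act through partners, and the fold changes of listed partners were read from the same fit. Of 11 PP1 inhibitors and core regulators, 8 were tested, 4 were lower and none was higher, where 20.2% and 11.2% of all tested genes were, with a median log2 fold change of -0.21 against 0.04 for all tested genes. Ppp1r11, inhibitor 3, fell, with 191 to 202 CPM in WT and 142, 147 and 126 CPM in Trf2-/- (log2 fold change -0.52, SE 0.06, edgeR adjusted p = 0.000721). Ppp1r35, a centriolar PP1-binding protein, also fell (-0.30, edgeR adjusted p = 0.0103). Ppp1r1b, the protein-kinase-A-regulated inhibitor DARPP-32, had 1.63 to 1.65 CPM in WT and 0.992 to 1.11 CPM in Trf2-/-. Its log2 fold change was -0.63 with an edgeR adjusted p of 0.0365. The call of Ppp1r1b was lost under 10 of the 12 alternatives, among them each mouse left out (adjusted p of 0.0547 to 0.174 by edgeR or DESeq2). Ppp1r7, the sds22 homologue that binds PP1 gamma in sperm, had 80.6 to 82.2 CPM in WT and 80.0 to 81.2 CPM in Trf2-/- (-0.01, edgeR adjusted p = 0.895). The count of 4 lower genes was 2 under 8 of the 12 alternatives, among them the DESeq2 Wald test and the fits without WT mouse 1, WT mouse 3, Trf2-/- mouse 1 or Trf2-/- mouse 2.

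Of the 18 PP1 targeting subunits, 3 were lower and 3 higher, shares near those of all tested genes (20.2% and 11.2%), with a median of 0.06. Ppp1r36 had 81.5 to 82.6 CPM in WT and 63.5, 65.6 and 44.9 CPM in Trf2-/-, lowest again in mouse 3 (-0.50, SE 0.12, edgeR adjusted p = 0.0139). Ppp1r3c, a glycogen-targeting subunit, rose, with 8.68 to 9.44 CPM in WT and 12.3 to 12.6 CPM in Trf2-/- (0.45, edgeR adjusted p = 0.00590). Ppp1r16b, a membrane-associated targeting subunit, was at 0.48 with an edgeR adjusted p of 0.0198. That call was lost without WT mouse 1 (0.0685), WT mouse 3 (0.0656) or Trf2-/- mouse 1 (0.0678). Without WT mouse 1 or WT mouse 3 a single targeting subunit was higher.

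Of 9 calcineurin regulators and calmodulins, 1 was lower and 1 was higher, where 20.2% and 11.2% of all tested genes were, with a median of 0.09. Calm3, a calmodulin gene, fell, with 710 to 745 CPM in WT and 575 to 586 CPM in Trf2-/- (-0.32, SE 0.04, edgeR adjusted p = 0.000893). Cabin1, a calcineurin-binding inhibitor, was at 0.25 with an edgeR adjusted p of 0.0367. Its call was lost with any 1 WT mouse or Trf2-/- mouse 1 left out (edgeR adjusted p of 0.0515 to 0.135). Rcan1, a calcineurin inhibitor whose transcription is itself raised by calcineurin signalling in many tissues, overlapped between genotypes at 36.7 to 41.3 CPM in WT and 33.1 to 37.0 CPM in Trf2-/- (-0.13, edgeR adjusted p = 0.174).

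The 7 calcineurin substrates of the NFAT and CRTC families had log2 fold changes between 0.15 and 0.48, with a median of 0.32. Against 20.2% of all tested genes lower and 11.2% higher, none of the 7 was lower and 1 was higher. That was Crtc1, a coactivator of cyclic-AMP-responsive transcription, at 23.3 to 25.0 CPM in WT and 28.0 to 33.4 CPM in Trf2-/- (0.32, SE 0.08, edgeR adjusted p = 0.0154). The call was lost without WT mouse 2 (0.0676) or WT mouse 3 (0.0512).

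Of the other catalytic genes of the phosphoprotein phosphatase family, 6 of 7 were tested. Among these 1 was lower and none higher, where 20.2% and 11.2% of all tested genes were. Ppp2cb, the beta catalytic subunit of PP2A, had 60.1 to 67.5 CPM in WT and 47.6 to 53.4 CPM in Trf2-/- (-0.35, SE 0.07, edgeR adjusted p = 0.00444). Gsk3a, a kinase acting with PP1 gamma in sperm, overlapped between genotypes at 68.8 to 78.0 CPM in WT and 70.6 to 78.1 CPM in Trf2-/- (0.03, edgeR adjusted p = 0.772).

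The scaling decided part of these list counts. With libraries scaled by size alone, 6 of the 7 calcineurin substrates passed as higher, as did 6 of the PP1 targeting subunits, 3 of the calcineurin regulators and calmodulins, and 1 gene in each of the other lists of partners. The lower genes then numbered 2 of the PP1 inhibitors, 2 of the targeting subunits, 1 of the calcineurin regulators and calmodulins and 1 of the other phosphatases. Over all 16924 tested genes, 2691 were lower and 4267 higher under that scaling.

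**Figure D5:**
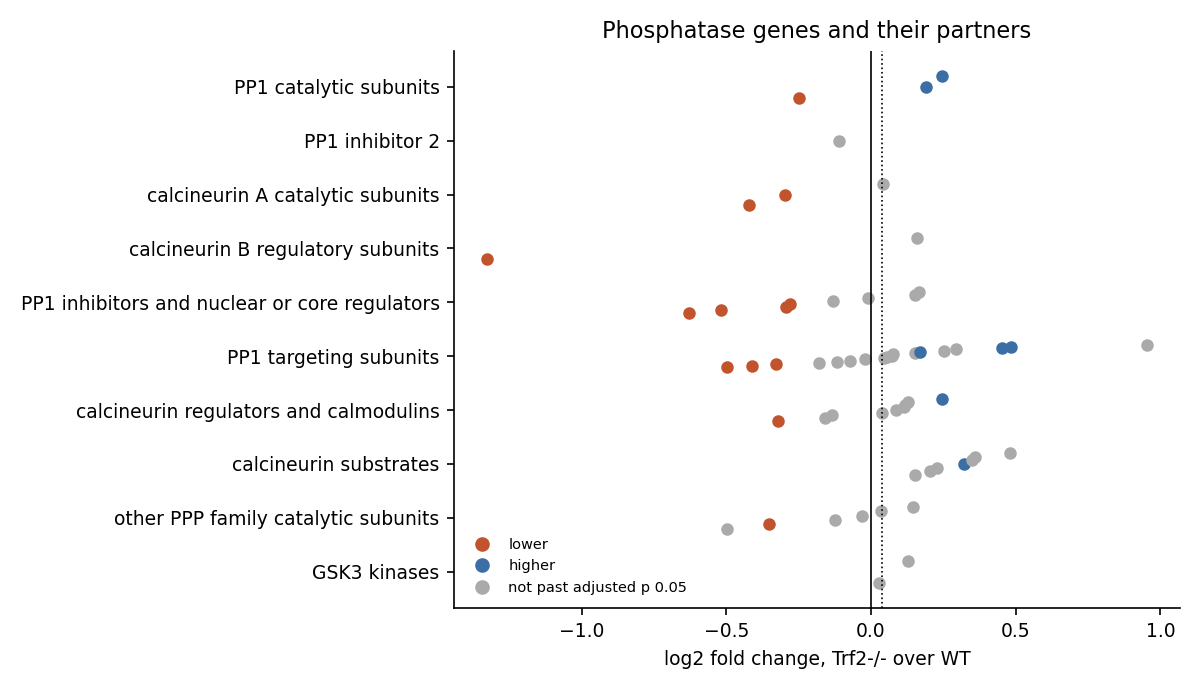
Log2 fold change, Trf2-/- over WT, of every tested gene in each list, 1 point per gene (orange lower, blue higher, grey not past an adjusted p of 0.05, dotted line the median of all tested genes). Ppp3r2 is the point farthest to the left (-1.33), the PP1 inhibitor list leans to the left and the calcineurin substrates all lie to the right of 0.

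The place of each gene in the genome bears on how its reads could be counted. In build NCBIM37 (mm9), the build of the files, Ppp3r2 lies at chr4:49691619-49694896 on the minus strand, within Grin3a, a glutamate receptor gene on the same strand, and shares no exonic base with it. Grin3a had 51 counts over all 6 mice together and did not pass the test (0.39, edgeR adjusted p = 0.497). Ppp3r1 (chr11:17059266-17100378, plus strand) shares 462 exonic bases, 14.3% of its exons, with Wdr92 on the same strand, which was lower in Trf2-/- (-0.20, edgeR adjusted p = 0.0256). Ppp1ca (chr19:4192158-4195419, plus strand) shares 222 exonic bases, 15.5%, with Rad9 on the opposite strand. Rad9 had 6.70 to 8.88 CPM, well below Ppp1ca. The library kit keeps the strand, but the strand setting of the counting is not given in the sources used here.

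Ppp1cc lies at chr5:122608287-122625282 on the plus strand. It has 9 annotated transcripts, so the gene count does not separate its splice forms. Of its 3081 exonic windows of 50 bases, 61.6% were found again elsewhere in the genome, mostly in the pseudogene Gm5601, which had 2 to 6 counts per mouse and was chosen for mention after its values were seen. Ppp1r2 (chr16:31251623-31275363, minus strand) had 30.2% of its windows elsewhere. The levels of these 2 genes are uncertain to the extent that reads with several matching sites were dropped or shared. For the other 7 genes at most 0.215% of windows were found elsewhere. Ppp1cb lies at chr5:32761347-32819806 (plus strand), Ppp3ca at chr3:136333088-136600691 (plus strand), Ppp3cb at chr14:21318586-21365795 (minus strand) and Ppp3cc at chr14:70617705-70689257 (minus strand).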

How the data were processed

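Total RNA libraries of 6 testes were read as single-end 50-base reads. Per the submitters' processing notes and the labels, the tools were CASAVA 1.8.2, TopHat2 2.0.10, Bowtie2 2.1.0, HTSeq 0.5.4p3 and DESeq2 1.0.19, on mm9. The deposited raw counts per gene, which the authors made, and the deposited gene length were used. The 12 other per-sample columns, normalised values, and the authors' own fold changes and p-values were not used. Counts of 16924 genes kept by filterByExpr (99.9% of counts) were fitted with edgeR 4.0.16 in R 4.3.3 (TMM, glmQLFit, glmQLFTest, genotype only), with DESeq2 1.42.0 as an alternative. Ratios had 0.5 added to each count and were tested over mice with scipy 1.17.1. Coordinates came from the table and GENCODE, promoters from RefSeq. On simulated counts, in which 200 genes were changed at least 2-fold, edgeR recovered 90.5% of them, with 8 false calls. Recovery of smaller changes, such as those of Ppp1ca, Ppp1cb, Ppp1cc, Ppp3ca and Ppp3cc, was not simulated.

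The members and gene lists were chosen with earlier results of these data known. Text names all 9 members, up to 3 genes per partner list with the largest change past adjusted p 0.05, fixed partners (Ppp1r7, Ppp1r11, Gsk3a, Rcan1), Tbpl1, overlapping genes and, for each germ cell form, the 3 genes most like it. A further partner gene is not reported here. The mice are separate animals of each genotype. Alternatives were other scalings, filters, tests, thresholds, lengths and each mouse left out.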

Additional observations from a re-analysis of the deposited data

How the results depend on the processing

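Of 108 refits of the 9 genes, 104 kept direction and side of the threshold. Ppp3cb turned to -0.0034 without WT mouse 2 (edgeR adjusted p = 0.977) and ran up to 0.10 with another mouse left out. Among 14 other named genes, 146 of 168 refits were kept and 19 lost the call; Ppp1r7 turned to 0.086 with library size alone (edgeR adjusted p = 0.158), and Gsk3a ran from -0.014, without WT mouse 3, to 0.077 with a mouse left out and was at -0.00025 without Trf2-/- mouse 3. Members called higher went from 2 to 3 with library size alone and to 1 at adjusted p under 0.01. They ranged from 1 to 2 with a mouse left out. Over all genes, those called higher numbered 4267 with library size alone, 481 at adjusted p under 0.01 and 780 to 1903 with a mouse left out, lowest without WT mouse 2. The 103 genes up at least 2-fold became 158 with library size alone, 159 with at least 1 count in all, 61 with at least 10 counts in every mouse, 32 at adjusted p under 0.01 and 53 to 177 with a mouse left out. The 727 down at least 2-fold became 436 with at least 10 counts in every mouse, where 15525 genes were tested. The cause of these moves was not tested.

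From raw counts in place of reads per kilobase, Ppp1cc made up 32.4% of PP1 in WT and 25.6% in Trf2-/-, Ppp3cc 38.4% and 38.2% of calcineurin A, and Ppp3r2 89.8% of calcineurin B in WT. With the length of all annotated exons, chosen after seeing the data, Ppp1cc made up 32.5% and 26.0%, and Ppp3cc 54.5% and 54.5%. No count of the 9 genes moved under the replicate block (4 lower, 2 higher, 1 down at least 2-fold), which called 3094 genes lower and 1486 higher over all. Deviations of same-numbered mice correlated at -0.102 to -0.0313, and no mouse correlated best with its own number. These correlations showed no pairing by number, but they cannot exclude that same-numbered mice were handled together. Depth limits the weakly expressed partners such as Ppp1r1b, at 17 to 47 counts per library.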

Other observations

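The genes whose log2 CPM followed each germ cell form most closely over the 6 mice were read from 15525 genes with at least 10 counts in every mouse. For Ppp3r2 they were Ccdc65, a component of the ciliary nexin-dynein regulatory complex (Pearson's r = 0.99997, log2 fold change -0.82), 1110004E09Rik (0.9997, -0.50) and 1700007G11Rik (0.9997, -0.94). Each of them fell less than Ppp3r2. For Ppp3cc they were Uchl3, a ubiquitin hydrolase (0.9999, -0.38), Myo1a (0.9996, -0.36) and Pou6f1 (0.9993, -0.41). For Ppp1cc they were 1700046C09Rik (0.997, -1.07), Ccdc77 (0.996, -0.29) and RP24-201C14.5 (0.995, -0.51). The 6 points of each correlation share the genotype difference, so high values were common: 17.8% of the genes had r above 0.9 with Ppp3r2, 18.1% with Ppp3cc and 11.3% with Ppp1cc. These values are descriptions without a test.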
